A study of Mus musculus with 12 samples.

Results

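The genes of the motile cilium's axoneme were followed by name through all libraries: every gene whose mouse symbol starts with Cfap, Dnah, Dnaic, Dnaaf, Rsph or Tekt and goes on with a digit, pseudogenes left out. This rule found 65 of the 41388 genes in the files: 30 Cfap, 16 Dnah, 2 Dnaic, 4 Dnaaf, 8 Rsph and 5 Tekt genes, below called the axonemal genes. Of these, 64 are protein coding and Dnah2os is an RNA antisense to Dnah2. The rule used names and no measured value, but it was chosen with earlier results of these data known. The study sequenced RNA from brain cells of 8 mice, all homozygous for a floxed Bmal allele (Bmal fl/fl; Bmal1, official symbol Arntl, is a core clock transcription factor) on a C57BL/6 background. Knockout animals also carried ALDH1L1-CreERT2, a tamoxifen-inducible Cre driven by an astrocyte promoter. Animals without Cre are the wild type (WT) and animals with Cre the astrocyte knockout (aKO). WT animals also carried the floxed allele and also received oral tamoxifen at 2 months of age (5 daily doses of 2 mg), and all brains were collected at 7 months. Digested brain was passed over beads against ACSA-2, an astrocyte surface antigen. The retained cells are called astrocytes and the cells that passed are called flowthrough.

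Astrocyte libraries came from 3 WT animals (numbers 201, 202 and 265) and 5 aKO animals (203, 205, 208, 221 and 222), and flowthrough libraries from WT 201 and 202 and aKO 203 and 205. Thus 4 animals gave both fractions. The astrocyte library of animal 202 carries a knockout genotype field under a WT title. Its title decided here (WT), and an alternative counts it as aKO. All flowthrough titles end in an unexplained b, so that whatever b stands for and the fraction cannot be told apart. Whether the Aldh1l1-driven Cre recombined in ependymal cells was not measured here. In bulk RNA, fewer cells of a type and less RNA per cell cannot be told apart.

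Motile cilia beat by means of the axoneme, a cylinder of microtubule doublets around a central pair. Outer and inner dynein arms on the doublets generate the sliding force, radial spokes pass signals from the central apparatus to the arms, and tektins and other proteins inside the doublets hold them together. Factors named Dnaaf assemble the dynein arms in the cytoplasm before they are carried into the cilium. In the brain, the cells known for motile cilia are the ependymal cells that line the ventricles and drive the flow of cerebrospinal fluid; the choroid plexus epithelium, which secretes that fluid, carries cilia as well. Astrocytes carry a primary cilium, which lacks dynein arms, radial spokes and a central pair. RFX factors and the forkhead factor Foxj1 are the known transcription factors of the motile cilium program, and RFX factors bind a sequence called the X-box.

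The X-box was looked for in the promoters, since it is the regulatory sequence best known from genes of cilia. RefSeq promoter windows (GRCm38.p6, 300 bases, from 250 before to 50 after a gene's start) were found for 52 of the 65 axonemal genes, with 59 windows in all. The others were Cfap157, Cfap299, Cfap53, Cfap54, Cfap65, Cfap73, Cfap97, Dnaaf1, Dnah2os, Dnah3, Rsph1, Rsph10b and Rsph4a. The pattern GTNNCC, any 3 bases, then GNAAC (either strand) occurred in 9 of the 59 windows (15.3%), against 2.17% of all 32851 windows. The matches are printed 5′ to 3′ on the strand of the gene. Capitals mark the fixed letters of the motif, read on whichever strand matched.
Cfap206: GTTtCcacGGttAC
Cfap298: GTtgCCcggGcAAC
Cfap44: GTTgCtatGGcaAC
Cfap45: GTTgCtatGGtaAC
Cfap61: GTttCCttaGcAAC
Dnaaf2: GTTaCtatGGcaAC
Dnaaf5: GTTcCcttGGagAC
Dnah17: GTcaCCagcGcAAC
Tekt4, upstream: GTgtCCtggGaAAC
Tekt4, at the start: GTTcCttaGGcaAC

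Most of these matches lay just before the gene's start: those of Cfap206, Cfap44, Cfap45, Dnaaf2 and Dnaaf5 began between -27 and -17 bases from it, and that of Cfap61 began at -8. The matches of Cfap298 and Dnah17 lay farther out, beginning at -188 and -159. Tekt4 had 2 matches, beginning at -160 and at the start itself, position 0. The shorter core GTTGCC, which can lie within the longer motif, was found on either strand in 39% of the axonemal windows and 12.5% of all windows. The forkhead core GTAAACA was found in 6.78% against 3.65% and the E-box CACGTG, the letters bound by clock factors including Bmal1, in 6.78% against 7.15%. A match describes letters in a window and is no evidence of binding. The windows of Cfap45, a protein inside the doublets, of Cfap206, a radial spoke adaptor, and of Tekt4, a tektin, are shown whole because their matches lie at the start and, for Tekt4, also upstream; here only the X-box is in capitals. Cfap45 lies at chr1:172520880-172521179 on the plus strand, Cfap206 at chr4:34730157-34730456 on the minus strand and Tekt4 at chr17:25471340-25471639 on the plus strand.
Cfap45: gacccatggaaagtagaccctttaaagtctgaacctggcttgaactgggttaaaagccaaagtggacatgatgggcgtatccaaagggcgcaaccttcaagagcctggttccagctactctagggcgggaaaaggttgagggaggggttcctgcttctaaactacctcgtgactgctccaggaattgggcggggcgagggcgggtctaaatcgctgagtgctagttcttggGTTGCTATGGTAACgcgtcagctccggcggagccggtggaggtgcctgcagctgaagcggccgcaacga
Cfap206: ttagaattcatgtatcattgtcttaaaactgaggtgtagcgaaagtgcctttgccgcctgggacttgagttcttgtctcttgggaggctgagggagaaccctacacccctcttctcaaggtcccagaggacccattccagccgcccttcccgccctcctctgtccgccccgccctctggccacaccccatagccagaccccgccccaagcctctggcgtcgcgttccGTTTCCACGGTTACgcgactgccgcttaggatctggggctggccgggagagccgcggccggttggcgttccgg
Tekt4: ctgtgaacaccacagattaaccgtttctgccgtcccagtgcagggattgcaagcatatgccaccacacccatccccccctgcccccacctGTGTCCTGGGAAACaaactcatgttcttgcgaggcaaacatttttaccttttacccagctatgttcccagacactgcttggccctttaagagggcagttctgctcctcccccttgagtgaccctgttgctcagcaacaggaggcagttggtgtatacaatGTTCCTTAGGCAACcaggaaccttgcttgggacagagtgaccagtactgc

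Library totals ranged from 21816637 to 62655238 counts in astrocytes and from 33019572 to 53868165 in flowthrough. At that depth 62 of the 65 axonemal genes had counts in every library. Of 12 astrocyte marker genes, 9 were higher in the astrocyte fraction, and all 10 microglial markers were lower (edgeR, described under the fraction comparison). The astrocyte fraction was also higher in 8 of 10 oligodendrocyte markers and 4 of 8 neuron markers. The 18 ependymal markers, none of them an axonemal gene by the rule, summed to between 908 and 3494 CPM (counts scaled to the library total) in astrocytes and between 1600.3 and 5217 CPM in flowthrough, and none was at 0 in any library. Ttr, the transthyretin gene of the choroid plexus, took 1.20% to 17.0% of the counts in astrocytes and 8.17% to 32.1% in flowthrough, and mitochondrially encoded genes took 11.1% to 36.5% and 4.81% to 12.9%. Arntl, the floxed gene, had 3.50, 6.80 and 2.13 CPM in WT astrocytes, 10.5, 25.0, 8.99, 12.5 and 5.05 CPM in aKO astrocytes, 3.21 and 4.39 CPM in WT flowthrough and 3.49 and 1.57 CPM in aKO flowthrough. Its gene count covers all exons, so the deleted part cannot be seen in it and it checks no label.

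The axonemal genes together took 2118, 765 and 1716 CPM in WT astrocytes (animals 201, 202 and 265). They took 1203, 1433, 1458, 1128 and 1095 CPM in aKO astrocytes (203, 205, 208, 221 and 222). Flowthrough held 1915 and 2447 CPM in WT (201 and 202) and 2471 and 815 CPM in aKO (203 and 205). Single values below follow the same order of animals. WT animals thus held both the highest astrocyte sum, in 201, and the lowest, in 202, and the 5 aKO sums lay between them. In flowthrough, aKO animals held both the highest and the lowest sum. By group the sums were 1533 CPM ± 695 (SD, n = 3) in WT astrocytes, 1263 CPM ± 171 (SD, n = 5) in aKO astrocytes, 2181 CPM ± 376 (SD, n = 2) in WT flowthrough and 1643 CPM ± 1171 (SD, n = 2) in aKO flowthrough.

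**Figure D1:**
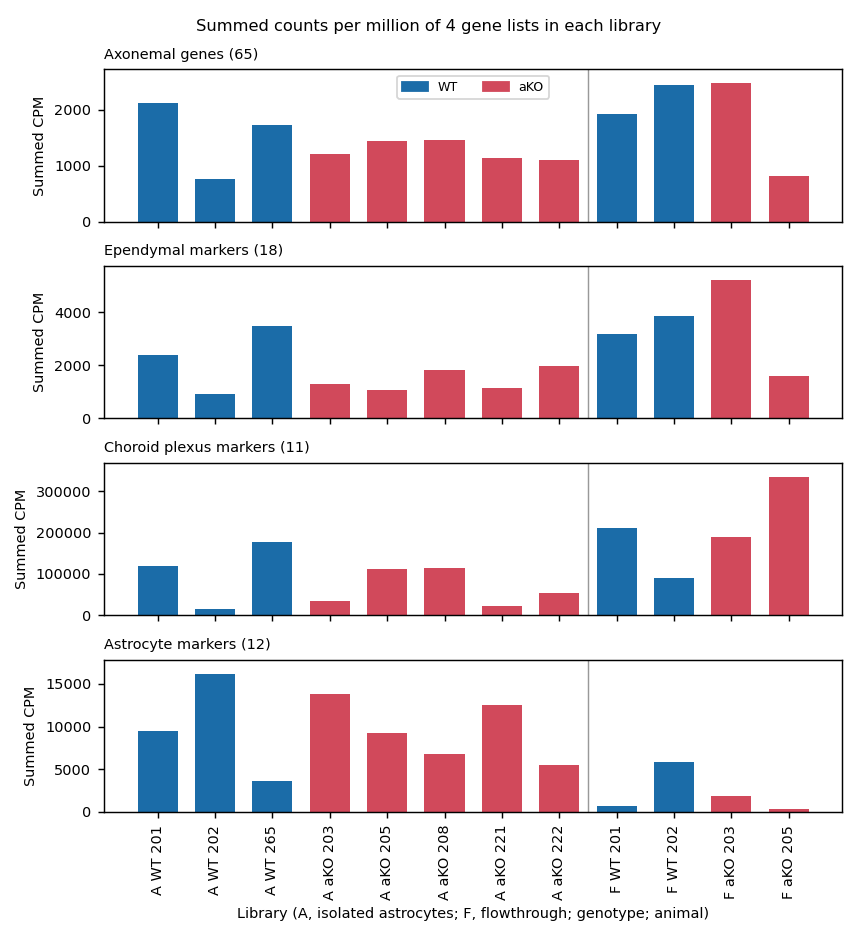
Summed CPM (vertical axis) of the axonemal genes and of the ependymal, choroid plexus and astrocyte markers in each of the 12 libraries (A, astrocytes; F, flowthrough; blue WT, red aKO). The axonemal sum was highest in flowthrough aKO 203 (2471 CPM) and lowest in astrocytes WT 202 (765 CPM), and the ependymal markers were highest and lowest in the same libraries. Ttr made up most of the choroid plexus sum in every library, such as 169879 of 178036 CPM in astrocytes WT 265.

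The ependymal marker sum and the axonemal sum shared both extremes. In both, flowthrough aKO 203 ranked 1 of 12 and the astrocytes of WT 202 ranked 12 of 12. Some other ranks parted. By axonemal and ependymal sum, the astrocytes of aKO 205 ranked 7 and 11 and those of aKO 222 ranked 10 and 6. Flowthrough aKO 205 ranked 11 and 8. Many of the 18 markers, Foxj1, Ak7, Dynlrb2 and Zmynd10 among them, are themselves genes of cilia. The marker sum is thus no independent reading of ependymal cells. The axonemal sum divided by the ependymal marker sum was 0.884, 0.843 and 0.491 in WT astrocytes and 0.942, 1.34, 0.796, 0.975 and 0.557 in aKO astrocytes. It was 0.604 and 0.637 in WT flowthrough and 0.474 and 0.509 in aKO flowthrough. In 6 of the 8 astrocyte libraries the ratio was above every flowthrough value. The exceptions were WT 265 and aKO 222, which lay in the flowthrough range. The part of ependymal cell content in the axonemal levels was not tested.

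Axonemal genes differed widely in level. Their mean over the 12 libraries was at least 1 CPM for 61 genes, at least 10 CPM for 33 and at least 100 CPM for Rsph9, Cfap126 and Rsph1. On the deposited RPKM, which allows for gene length, Rsph9 was at 52.8 to 233 RPKM in astrocytes and 108 to 270.1 RPKM in flowthrough. Rsph1 was at 41.1 to 149 and 47.0 to 273 RPKM, and Cfap126 at 37.2 to 182 and 90.9 to 253 RPKM. These 3 genes led the order of mean RPKM, and their ranges over libraries overlapped. Cfap299 and Tekt1 came next, with mean RPKM of 83.4 and 44.9. At the bottom, Rsph6a had at most 6 counts in any library and Cfap97d1 at most 24. The lowest mean RPKM were those of Dnah8, Dnah17 and Rsph6a, at 0.0725, 0.0315 and 0.0195.

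**Figure D2:**
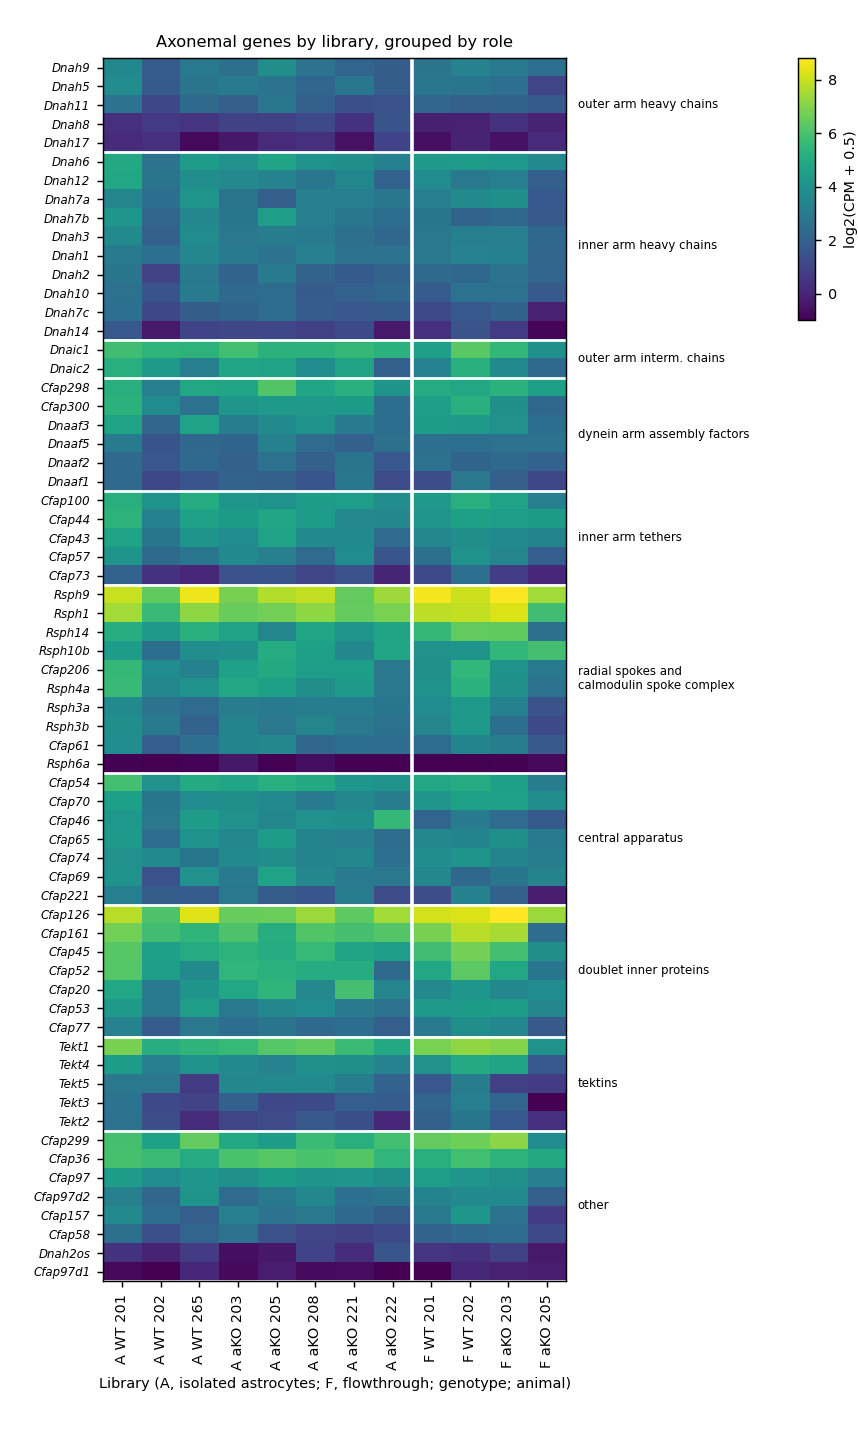
Level of each axonemal gene as log2(CPM + 0.5) (colour) in each library (columns: A, astrocytes; F, flowthrough), with genes grouped by the role of their protein and sorted by mean level within a role. Colours compare libraries within a gene, not genes of different length; flowthrough aKO 205 was the lowest of the 4 flowthrough libraries for 56 of the 65 genes.

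Of the dynein heavy chains, the motors themselves, the 5 of the outer arm summed to 9.55 to 32.0 CPM in astrocytes and 11.1 to 20.7 CPM in flowthrough. Dnah5 and Dnah9, the outer arm motors of airway and ependymal cilia, had mean RPKM of 0.374 and 0.443. The 10 inner arm chains summed to 37.3 to 126 CPM in astrocytes and 37.6 to 80.7 CPM in flowthrough. Dnah12, an inner arm motor, had 28.5, 6.35 and 13.4 CPM in WT astrocytes, 11.9, 9.63, 6.72, 10.9 and 3.78 CPM in aKO astrocytes, 12.9 and 7.21 CPM in WT flowthrough and 8.60 and 3.39 CPM in aKO flowthrough. It was highest in the astrocytes of WT 201 and low in those of aKO 222 and in flowthrough aKO 205. Dnah7a, another inner arm motor, had 10.6, 5.36 and 17.1 CPM in WT astrocytes, 6.42, 3.39, 9.10, 8.79 and 6.65 CPM in aKO astrocytes, 8.68 and 12.1 CPM in WT flowthrough and 14.4 and 2.73 CPM in aKO flowthrough. Here the astrocytes of WT 265 were highest. Dnah7a, Dnah7b and Dnah7c are close copies in the mouse, as are Rsph3a and Rsph3b. The split of reads within these copies is uncertain, as the treatment of multiply matching reads is unknown.

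Of the outer arm intermediate chains, which anchor the motors, Dnaic1 ranged from 38.4 to 57.1 CPM in astrocytes and from 14.9 to 77.8 CPM in flowthrough. Dnaic2 varied more within astrocytes, from 3.52 CPM in aKO 222 to 36.2 CPM in WT 201. The dynein arm assembly factors, 4 Dnaaf genes with Cfap298 and Cfap300, summed to 32.9 to 120.5 CPM in astrocytes and 44.6 to 100.4 CPM in flowthrough. Dnaaf3 had 25.1, 4.27 and 24.5 CPM in WT astrocytes, 8.48, 12.2, 15.7, 8.01 and 5.26 CPM in aKO astrocytes, 20.7 and 19.1 CPM in WT flowthrough and 15.2 and 5.39 CPM in aKO flowthrough. Its highest values were those of the astrocytes of WT 201 and WT 265, with flowthrough WT 201 next. The inner arm tethers Cfap43 and Cfap44 and their neighbours Cfap57, Cfap73 and Cfap100 summed to 32.5 to 121 CPM in astrocytes and 42.6 to 93.1 CPM in flowthrough.

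Among the radial spoke genes, Rsph9, a spoke head gene, had 257, 84.6 and 374 CPM in WT astrocytes, 110.2, 204, 244, 88.2 and 167 CPM in aKO astrocytes, 397 and 269 CPM in WT flowthrough and 433 and 173 CPM in aKO flowthrough. The highest astrocyte value was that of WT 265, below only flowthrough aKO 203 and WT 201. Rsph1, also of the spoke head, had 174, 47.8 and 143 CPM in WT astrocytes, 91.0, 105, 141, 90.2 and 114 CPM in aKO astrocytes, 227 and 241 CPM in WT flowthrough and 317 and 54.7 CPM in aKO flowthrough. For Rsph1, 3 of the 4 flowthrough libraries exceeded every astrocyte library, and flowthrough aKO 205 lay near the bottom. Among the proteins inside the doublets, Cfap126, which helps to position basal bodies, had 218, 66.1 and 323 CPM in WT astrocytes, 91.9, 93.6, 159, 81.7 and 173 CPM in aKO astrocytes, 281 and 318 CPM in WT flowthrough and 449 and 161 CPM in aKO flowthrough. Again WT 265 was the highest of the astrocytes, above flowthrough WT 201, WT 202 and aKO 205. Cfap161, another protein inside the doublets, had 105, 55.5 and 42.3 CPM in WT astrocytes, 66.0, 34.4, 71.0, 59.4 and 73.3 CPM in aKO astrocytes, 110.3 and 220.03 CPM in WT flowthrough and 183 and 5.12 CPM in aKO flowthrough. It spanned from 5.12 to 220.03 CPM within the 4 flowthrough libraries alone, with aKO 205 lowest. Cfap45 had 75.9, 23.0 and 32.2 CPM in WT astrocytes, 40.0, 33.0, 47.0, 26.2 and 21.6 CPM in aKO astrocytes, 55.6 and 109 CPM in WT flowthrough and 58.2 and 13.9 CPM in aKO flowthrough. Flowthrough WT 202 and the astrocytes of WT 201 were highest.

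The tektins form filaments in the doublet wall. Tekt1 had 110.2, 33.9 and 41.1 CPM in WT astrocytes, 47.0, 73.4, 85.8, 50.5 and 29.9 CPM in aKO astrocytes, 114 and 146 CPM in WT flowthrough and 127 and 15.3 CPM in aKO flowthrough. Like Rsph1, it was higher in 3 flowthrough libraries than in every astrocyte library and lowest in flowthrough aKO 205. Tekt3 had no count in flowthrough aKO 205, which at that depth allows up to 0.0909 CPM (3 counts, counting error only). Of the genes with no role assigned, Cfap299 had 60.3, 24.3 and 86.5 CPM in WT astrocytes, 28.0, 20.3, 50.5, 36.3 and 57.3 CPM in aKO astrocytes, 87.5 and 100.1 CPM in WT flowthrough and 139 and 12.7 CPM in aKO flowthrough. Again aKO 205 was lowest in flowthrough, and WT 265 was highest in astrocytes. Cfap36, which is also known from primary cilia, had 60.8, 50.5 and 32.6 CPM in WT astrocytes, 63.1, 76.3, 62.5, 72.8 and 43.0 CPM in aKO astrocytes, 36.0 and 57.1 CPM in WT flowthrough and 39.9 and 30.5 CPM in aKO flowthrough. Its lowest value was in flowthrough aKO 205 and its highest in the astrocytes of aKO 205.

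The fraction comparison asked which axonemal genes differed between bead-retained astrocytes and flowthrough, with both genotypes weighted equally. Cfap46 was higher in astrocytes and Cfap70 lower; both are proteins of the central apparatus. These were the only 2 of 64 axonemal genes tested that passed (adjusted p under 0.05), while 17% of all 20637 genes tested did, 8.51% higher and 8.52% lower (quasi-likelihood test of edgeR, p adjusted over all genes by Benjamini-Hochberg). At an unadjusted p under 0.05 there were 12 axonemal genes (18.8%), against 32% of all genes. Estimates lay below 0 for 47 axonemal genes and above 0 for 17, against 53.1% of all genes above 0, with a median of -0.23 (log2) against 0.072 over all genes. No axonemal gene separated the 8 astrocyte from the 4 flowthrough libraries by CPM, which 10.9% of all genes did.

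Cfap46 (ENSMUSG00000049571, GRCm38 chr7:139638778-139683817) had 18.2, 6.91 and 20.4 CPM in WT astrocytes, 15.3, 10.8, 15.1, 14.4 and 45.9 CPM in aKO astrocytes, 4.11 and 7.58 CPM in WT flowthrough and 4.94 and 2.91 CPM in aKO flowthrough. All but the WT 202 library of astrocytes lay above all 4 flowthrough libraries, and the astrocytes of aKO 222 lay far above the other aKO astrocytes. The log2 fold change was 1.71 (SE 0.50; edgeR, adjusted p = 0.0257). Without aKO 222 it was 1.35 (edgeR, adjusted p = 0.0141). Cfap70 (ENSMUSG00000039543, GRCm38 chr14:20394190-20452226) had 22.5, 6.53 and 12.9 CPM in WT astrocytes, 14.3, 12.2, 7.78, 11.4 and 8.35 CPM in aKO astrocytes, 16.9 and 24.2 CPM in WT flowthrough and 24.2 and 13.7 CPM in aKO flowthrough. The groups overlapped: the astrocytes of WT 201 lay among the flowthrough values and those of aKO 203 above flowthrough aKO 205. Its log2 fold change was -0.95 (SE 0.29; edgeR, adjusted p = 0.0351). Over 21 alternative settings, Cfap46 stayed past the threshold in 16 (adjusted p from 0.000247 to 0.115) and Cfap70 in 7 (from 0.0118 to 0.147).

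A fit paired by animal (animal as a block; 4 animals with both fractions, 8 libraries) called 7 axonemal genes: Cfap126, Cfap299, Cfap53, Rsph10b, Rsph14 and Rsph9 were lower in astrocytes and Tekt5 was higher. By CPM, without the TMM scaling of the fit, only Cfap126 of these 7 lay on the same side in all 4 animals. The fit spends a coefficient on each animal, so few values are left to estimate the spread. On the same 8 libraries without the block, Cfap126 (lower) and Tekt5 (higher) passed. Neither Cfap46 (edgeR, adjusted p = 0.0501 with the block) nor Cfap70 (edgeR, adjusted p = 0.0567 with the block) passed in either fit. Of all genes, 29.5% passed with the block and 17.6% without it.

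Single libraries decided which axonemal genes passed. Without flowthrough WT 201 none did by edgeR (10 at an unadjusted p under 0.05), and 7.61% of all genes did. Without flowthrough aKO 203 only Dnah7c and Tekt3 did, both higher in astrocytes, beside 13.6% of all genes, and the median of the axonemal genes turned to 0.12. Without flowthrough aKO 205, 6 were lower: Cfap161, Cfap70, Cfap77, Rsph1, Rsph14 and Tekt1, beside 9.59% of all genes in either direction. Cfap46 alone passed without flowthrough WT 202 and without the astrocytes of WT 202, aKO 205, aKO 208 or aKO 221, each left out singly; between 12.5% and 18.5% of all genes passed in these fits. Cfap126 and Rsph10b passed beside Cfap46 and Cfap70 without the astrocytes of aKO 222, where 19.9% of all genes did. Without the astrocytes of both aKO 222 and WT 265, 5 passed: Cfap126, Rsph10b and Rsph9 were lower, and Cfap46 and Tekt5 were higher, beside 24.7% of all genes. Cfap126 (ENSMUSG00000026649, GRCm38 chr1:171113918-171126967) is listed by library above.

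**Figure D3:**
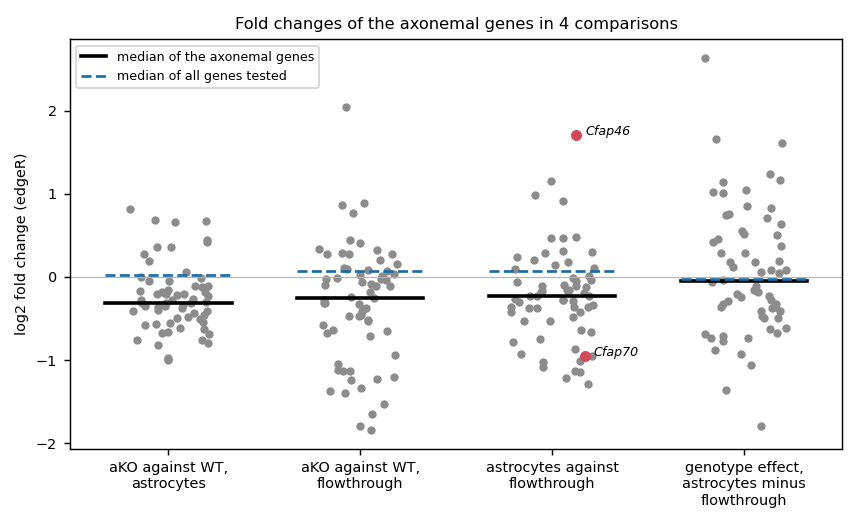
Log2 fold changes from edgeR (vertical axis) of the axonemal genes in the 4 comparisons, each point a gene, with the median of the axonemal genes (black) and of all genes tested (blue, dashed). The genes in red, Cfap46 and Cfap70, passed at an adjusted p under 0.05, and the black median lies below the blue in every comparison, by least in the one on the right (-0.049 against -0.028).

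By role, the lowest medians in astrocytes against flowthrough were those of the 7 proteins inside the doublets (-0.78 on the log2 scale, 6 of 7 below 0), the 5 tektins (-0.64, 4 of 5 below 0) and the radial spoke genes (-0.53, 8 of 9 tested below 0). The 6 assembly factors and the 5 inner arm tethers also all lay below 0, with medians of -0.36 and -0.22. The outer arm heavy chains had a median of 0.11 and the central apparatus genes of 0.15. No gene of these roles other than Cfap46 and Cfap70 passed.

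Within animals, the direction of the difference between fractions depended on the scale. The summed CPM of the axonemal genes in astrocytes divided by that in the flowthrough of the same brain was 1.11 in WT 201, 0.313 in WT 202, 0.487 in aKO 203 and 1.76 in aKO 205. The astrocyte library was higher for 52, 3, 31 and 58 of the 65 genes in these animals. Animals 202 and 205, of different genotype, thus stood at opposite ends. With TMM-scaled CPM the ratios were 0.866, 0.362, 0.376 and 0.926, all below 1, so that 201 and 205 changed sides. The ependymal marker sum was lower in astrocytes in all 4 animals, with ratios of 0.755, 0.236, 0.245 and 0.667.

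Few axonemal genes lay on the same side in all 4 animals: the inner arm motor Dnah7b and the outer arm motor Dnah8 were higher in astrocytes each time, and Cfap126 and Dnah2os lower each time (all but Cfap126 named after their values were seen). On log2(CPM + 0.5), the Cfap126 difference was -0.36, -2.26, -2.28 and -0.78 in animals 201, 202, 203 and 205. That of Dnah7b was 1.34, 0.14, 0.50 and 2.76. Dnah2os and Dnah8 rest on few counts. In aKO 205, Dnah2os had 9 counts in astrocytes and 10 in flowthrough, and it had 3 in the astrocytes of aKO 203. Dnah8 had 15 to 48 counts in the libraries of these 4 animals. The share of axonemal genes higher in all 4 was 3.08% and lower in all 4 was 3.08%, against 31.4% and 14.5% of all genes tested. Dnah2os shares 36.3% of its exon length with Dnah2 on the other strand, a stretch that is 2.11% of the exon length of Dnah2. Whether the counting used strand is unknown here, so reads in the shared stretch cannot be told apart.

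**Figure D4:**
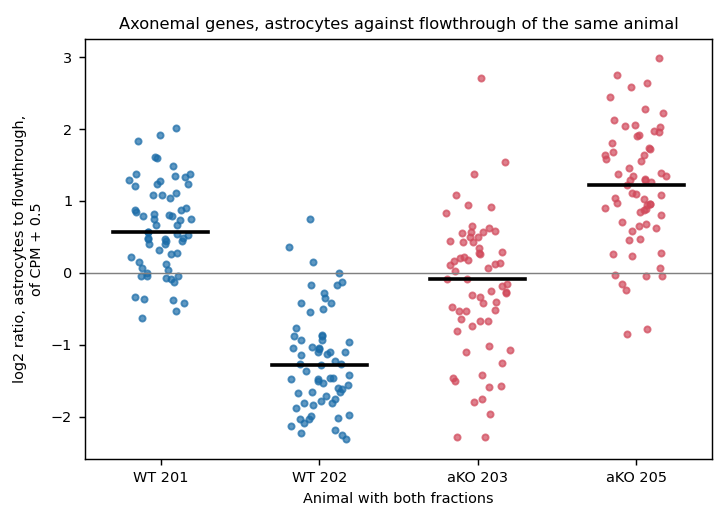
Log2 ratio of CPM + 0.5 in astrocytes to flowthrough of the same animal (vertical axis) for each axonemal gene (points; blue WT, red aKO), with the median per animal (black line). Points lie mostly above 0 in WT 201 and aKO 205, mostly below 0 in WT 202, and on both sides in aKO 203.

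The genotype comparison in astrocytes asked whether axonemal genes differed between 5 aKO and 3 WT animals. None of the 63 tested passed, and 5 of all 18950 genes tested did (0.0264%, of which 0.0211% higher and 0.00528% lower in aKO; same edgeR test). DESeq2 and limma voom also called none of them. At an unadjusted p under 0.05 there were 3 axonemal genes (4.76%), against 1.58% of all genes. Estimates lay below 0 for 52 genes and above 0 for 11, against 53% of all genes above 0, with a median of -0.31 (log2) against 0.024 over all genes. No axonemal gene had groups that did not overlap, which 1.41% of all genes had. The ependymal markers lay the same way, 17 of 18 below 0 with a median of -0.70, as did 10 of 11 choroid plexus markers, with a median of -0.27. All 10 oligodendrocyte markers (median 0.86) and all 8 endothelial markers (median 0.43) lay above 0. No gene of these 4 lists passed, and the part of cell composition in the axonemal estimates was not tested.

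The 3 genes under an unadjusted p of 0.05 were Cfap53, Dnah12 and Cfap100. Cfap53, a protein inside the doublets that is also needed for left-right patterning, had 19.2, 7.33 and 22.4 CPM in WT astrocytes, 7.06, 11.6, 13.2, 8.04 and 5.74 CPM in aKO astrocytes, 19.3 and 19.7 CPM in WT flowthrough and 20.9 and 11.0 CPM in aKO flowthrough. WT 201 and WT 265 held the highest astrocyte values, while WT 202 lay within the aKO range. The log2 fold change was -0.99 (SE 0.39; edgeR, adjusted p = 0.9997). Dnah12, listed by library above, had -1.001 (SE 0.40; edgeR, adjusted p = 0.9997), with WT 202 again among the aKO values. Of the inner arm heavy chains all 10 lay below 0, from -1.001 to -0.050, and none passed. On the other side, the highest estimate was that of Tekt5, a tektin, at 0.82 (SE 0.51); it had 6.93, 6.93 and 1.08 CPM in WT astrocytes, 11.4, 12.5, 12.3, 8.31 and 3.70 CPM in aKO astrocytes, 2.65 and 8.49 CPM in WT flowthrough and 1.32 and 1.15 CPM in aKO flowthrough.

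This direction depended on WT 201. The median of the axonemal genes was 0.034 without WT 201, -0.18 without WT 265 and -0.58 without WT 202. With library 202 counted as aKO, as its genotype field has it, the median was -0.69 and 21 of 64 axonemal genes had an unadjusted p under 0.05, against 803 of all 19876 genes, with none past the adjusted threshold.

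In flowthrough, none of 64 axonemal genes passed between 2 aKO and 2 WT animals, and 0% of all genes did; DESeq2 and limma voom called none of the axonemal genes either. At an unadjusted p under 0.05 there were 5 axonemal genes (7.81%), against 3.96% of all genes. Estimates lay below 0 for 43 axonemal genes and above 0 for 21, against 53.2% of all genes above 0. Their median was -0.25 (log2) against 0.074 over all genes. Groups did not overlap for 17 axonemal genes, against 32.7% of all genes. Rsph10b, a spoke head gene (ENSMUSG00000075569, GRCm38 chr5:143933035-143985719), had 21.1, 5.31 and 13.5 CPM in WT astrocytes, 14.6, 33.4, 23.3, 11.6 and 27.3 CPM in aKO astrocytes, 15.1 and 16.4 CPM in WT flowthrough and 44.2 and 60.8 CPM in aKO flowthrough. Both aKO flowthrough values lay above both WT values and above all astrocyte values. The log2 fold change was 2.04 (SE 0.60; edgeR, adjusted p = 0.804). Rsph10b shares 15.7% of its exon length with other genes, Pms2 on the same strand among them, and it is unknown here to which gene reads in shared exons went. Rsph3b, a spoke stalk gene, had 13.9, 7.71 and 3.77 CPM in WT astrocytes, 9.95, 6.91, 10.5, 7.14 and 5.87 CPM in aKO astrocytes, 10.5 and 19.2 CPM in WT flowthrough and 5.36 and 1.73 CPM in aKO flowthrough. Both WT flowthrough values lay above both aKO values. The log2 fold change was -1.79 (SE 0.61) in flowthrough (edgeR, adjusted p = 0.804).

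The flowthrough libraries of the 2 aKO animals lay far apart: aKO 205 was the lowest of the 4 for 56 of the 65 genes, while WT 202 was the highest for 38. Without aKO 205 the median of the axonemal genes was 0.057, and without aKO 203 it was -1.23. Flowthrough aKO 205 also had the largest share of Ttr, 32.1%, and the lowest ependymal marker sum in flowthrough. Over a total without mitochondrial genes and Ttr, its axonemal sum was 1290 CPM, still the lowest in flowthrough. The others were 2549 (WT 201), 3099 (WT 202) and 3343 CPM (aKO 203). The part of the Ttr share in these levels was not tested.

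The difference between the genotype effects in astrocytes and in flowthrough passed for none of 64 axonemal genes and for 0% of all genes (edgeR; DESeq2 and limma voom called no axonemal gene either). There were 2 axonemal genes at an unadjusted p under 0.05 (3.13%), against 2.42% of all genes, and 31 had estimates above 0, against 49% of all genes. Tekt5, listed by library above, had a difference of 2.63 (SE 0.93) on the log2 scale and Rsph3b one of 1.66 (SE 0.75; edgeR, adjusted p = 0.956 for both). All 5 tektins had estimates above 0 in this difference, from 0.086 to 2.63. Their sum was 139 and 201.8 CPM in WT flowthrough, 161 CPM in flowthrough aKO 203 and 19.99 CPM in flowthrough aKO 205. For Tekt1, Tekt3 and Tekt4, flowthrough aKO 203 lay between the WT flowthrough values and only aKO 205 lay below them. The low aKO flowthrough level of these genes thus rested on 1 library. For Tekt2 and Tekt5, both aKO flowthrough values lay below both WT values.

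The astrocyte library of WT 265 was high for some axonemal genes and low for others. Its axonemal sum was 1.43 times the median of the other 7 astrocyte libraries, and its ependymal marker sum 2.74 times. Single ependymal markers went both ways. Tmem212 was at 730 CPM in WT 265 and at 92.5 to 357 CPM in the other astrocyte libraries. Lrrc23 was at 17.5 CPM in WT 265 and at 20.3 to 56.5 CPM in the others. It was the highest of the 8 for 11 axonemal genes and the lowest for 6, and it lay above the median of the others for 38 and below for 27. WT 201, by comparison, was the highest for 32 genes. Among the 60 genes with at least 20 counts in WT 265, the ratio to the median of the other 7 ran from 0.131 to 3.45, with a median of 1.14.

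The largest of these ratios were those of Cfap126 (3.45), Dnaaf3 (2.89), Cfap53 (2.79), Dnah7a (2.56) and Cfap97d2 (2.51). At the other end were Tekt5 (0.131), Cfap300 (0.320), Dnaic2 (0.357), Cfap52 (0.359) and Cfap206 (0.435); these were singled out after their values were seen. Rsph9, Cfap126 and Rsph1 made up 48.9% of the axonemal counts in WT 265 and 41.5% in aKO 222, and between 23.1% and 37.3% in the other astrocyte libraries. In flowthrough they made up 33.8% to 48.5%.

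The astrocyte library of aKO 222 shared part of this pattern. Against the median of the 6 remaining astrocyte libraries, 7 genes were under 0.5 times in both: Cfap206, Cfap300, Cfap52, Cfap73, Dnaic2, Tekt2 and Tekt5, of which Cfap73 and Tekt2 had 15 and 17 counts in WT 265. The ratios of the 2 libraries had a Spearman rho of 0.53 across 61 axonemal genes, which are not independent and share the same 6 libraries as denominator. Cfap52, a protein inside the doublets like Cfap126, had 74.3, 21.7 and 12.0 CPM in WT astrocytes, 43.4, 37.7, 33.6, 33.1 and 4.70 CPM in aKO astrocytes, 28.3 and 81.3 CPM in WT flowthrough and 29.3 and 6.51 CPM in aKO flowthrough. The CPM of Cfap126 divided by that of Cfap52 was 26.8 in WT 265 and 36.9 in aKO 222, and 2.12 to 4.74 in the other 6 astrocyte libraries. In flowthrough it was 9.95 and 3.91 in WT and 15.3 and 24.8 in aKO. High and low ratios thus occurred in both fractions, and in astrocytes in both genotypes. The rho of exon length with the ratios across genes was 0.25 for WT 265 and 0.082 for aKO 222. Genes with at least 20 counts in WT 265 were split at the median exon length of 3223 bases, 30 on each side. The median ratio of WT 265 to the other 7 libraries was 0.940 for the shorter and 1.33 for the longer genes. That of aKO 222 to the 6 libraries was 0.651 and 0.667. These 2 libraries also held the lowest summed astrocyte markers of the 8, 3575 and 5463 CPM, and, of the 8, the highest share of Ttr stood in WT 265 (17.0%) and of mitochondrially encoded genes in aKO 222 (36.5%). The part of these in the pattern was not tested.

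**Figure D5:**
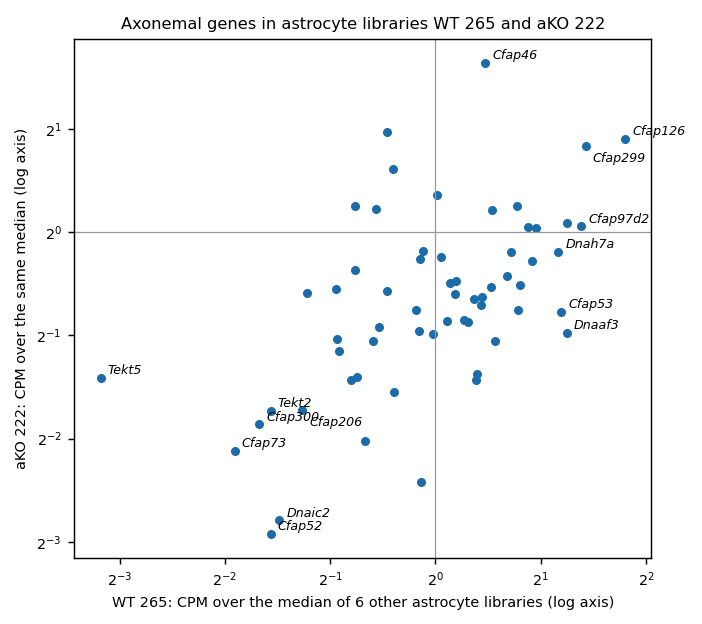
Ratio of CPM to the median of the 6 other astrocyte libraries for each axonemal gene, in WT 265 (horizontal axis) and aKO 222 (vertical axis), both on log2 axes. Cfap126 and Cfap299 are above 1 in both libraries, while Cfap52, Dnaic2, Cfap73, Cfap300, Cfap206, Tekt2 and Tekt5 are under 0.5 in both.

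Cilia genes outside the rule were read beside the axonemal genes. Of 8 central apparatus genes, Spef1, which organizes the central pair microtubules, was lower in astrocytes than in flowthrough, with 1.61, 0.827 and 2.05 CPM in WT astrocytes, 0.825, 1.62, 1.35, 2.10 and 2.22 CPM in aKO astrocytes, 4.45 and 4.65 CPM in WT flowthrough and 6.87 and 2.30 CPM in aKO flowthrough. Its log2 fold change was -1.76 (SE 0.41; edgeR, adjusted p = 0.00727). In no library of astrocytes did Spef1 exceed any flowthrough value. The other 7 did not pass, among them Hydin, a central apparatus scaffold, at -0.34 (SE 0.33) and Ak7 at -0.37 (SE 0.40). Of 17 dynein docking, chain and assembly genes tested none passed, with a median of -0.38 (log2); Dynlrb2, a dynein light chain, was at -1.29 (SE 0.46) and Dnal1 at 0.85 (SE 0.30). None of 9 nexin-dynein regulatory complex genes passed (median -0.29), nor did any of 22 intraflagellar transport genes, which serve primary and motile cilia alike (median -0.16).

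A list of regulators of multiciliated cells, which also holds the tubulin genes Tubb4b and Tuba1a, had 12 genes tested. Of these, Rfx3 was higher in astrocytes, with 39.4, 16.5 and 14.6 CPM in WT astrocytes, 30.8, 50.8, 13.2, 24.2 and 8.66 CPM in aKO astrocytes, 9.24 and 7.82 CPM in WT flowthrough and 6.29 and 8.21 CPM in aKO flowthrough. Of the astrocyte libraries, only aKO 222 lay within the flowthrough range. Rfx3 is an RFX factor of cilia genes that is active outside motile cilia too. The log2 fold change was 1.30 (SE 0.38; edgeR, adjusted p = 0.0263). Foxj1, the forkhead regulator of motile cilia, had 14.8, 3.60 and 25.0 CPM in WT astrocytes, 7.01, 24.0, 13.5, 12.7 and 7.61 CPM in aKO astrocytes, 15.5 and 15.9 CPM in WT flowthrough and 22.8 and 20.2 CPM in aKO flowthrough. Its values overlapped between fractions and its log2 fold change was -0.71 (SE 0.39; edgeR, adjusted p = 0.222). The 9 axonemal genes with an X-box in a promoter window had fraction estimates from -0.75 (Cfap45) to 0.47 (Dnah17), and none of them passed. The ependymal markers were all below 0 in astrocytes against flowthrough, with a median of -1.001, and none of the 18 passed either (Foxj1, Ak7, Dynlrb2 and Zmynd10 stand in this list too); the estimates of Tmem212 and Ccdc153 were -1.27 (SE 0.52) and -1.01 (SE 0.50).

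In aKO against WT astrocytes, none of the genes of these 5 cilia lists passed, with medians of -0.44 for the central apparatus genes, -0.38 for docking, -0.21 for the nexin-dynein complex, -0.082 for intraflagellar transport and -0.18 for the regulators.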

How the data were processed

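Libraries were made with the SMARTer v1 kit from RNA of bead-sorted adult mouse brain cells, per the labels' protocols. The deposited files hold, for each gene, the count of reads and the authors' CPM and RPKM, per the file headers; the CPM equals the count over the library total. Per the submitters' processing notes, the tools were featureCounts 1.4.6-p5 of Subread, STAR 2.5.1a and bcl2fastq, and the build GRCm38. Annotation release, strandedness and treatment of multiply matching reads are not given in the sources used here. Symbols were taken from GENCODE vM21, which named 40340 of the 41388 gene IDs.

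Counts were tested with edgeR 4.0.16 (TMM scaling, robust quasi-likelihood fit, 2-sided, Benjamini-Hochberg over all genes tested, threshold 0.05) after filterByExpr (minimum count 10, minimum total 15), which kept 18950 genes in astrocytes and 20637 over all libraries. A gene could pass this filter through 1 group alone. Astrocyte genotypes were compared in a fit of the 8 astrocyte libraries alone; all else came from 1 fit of all 12 libraries in 4 groups, so that their spread is shared and the 3 comparisons draw on the same libraries. Alternatives were DESeq2 1.42.0 and limma 3.58.1 voom in R 4.3.3, DESeq2 size factors, no filter, each library left out, library 202 as aKO, and the animal as a block. For library 202 as aKO, only the astrocyte library of animal 202 was recoded, and its flowthrough library stayed WT. The test was checked on simulated counts. The members and gene lists were chosen with earlier results of these data known. Named were the axonemal genes that passed, the 8 with the highest mean CPM, the 5 with the largest ratio in WT 265, the 2 with the smallest p in each other comparison, and in each list outside the rule those with the smallest p in the fraction comparison, of which those a result turns on are printed; others are said to be chosen after their values were seen or were added to show a role. Titles give the animal's number, and libraries of both fractions with the same number were taken as the same animal; within a fraction each animal is 1 library. Deviations from the group means were compared between the 2 libraries of each animal with both fractions. Their correlations across genes were 0.0823 (201), 0.424 (202), 0.166 (203) and 0.404 (205). With 2 flowthrough libraries per genotype, the deviations of 1 are the negatives of the other's, so the 4 values are not independent. In the RefSeq windows, motifs were matched by letters on both strands.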

Additional observations from a re-analysis of the deposited data

Results flagged for a closer look

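Cfap46, the central apparatus gene that was higher in astrocytes than in flowthrough, was at 45.9 CPM in the astrocytes of aKO 222 and at 10.8 to 15.3 CPM in the other 4 aKO astrocyte libraries. The gap to the nearest library was 0.872 of the group's range, above Dixon's 95% critical value of 0.710 for 5 samples. Of 29 groups of values examined this was the only 1 past that limit, and chance alone puts about 1 in 20 there.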

How the results depend on the processing

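In the fraction comparison the count of axonemal genes past the threshold moved from 2 (17% of all genes passed) to 5 with DESeq2 (23.8%), 7 with the animal as a replicate block (29.5%), 1 with library 202 as aKO (14.3%), 8 without the count filter (13.9%) and 5 without aKO 222 and WT 265 (24.7%). With each library left out it ran from 0 to 6 (7.61% to 19.9% of all genes). With limma voom it was 2 (17.6%), and so was the count on the 8 paired libraries without the block (17.6%). The block changed no call of an axonemal gene in the difference of genotype effects, where none passed. The genotype comparisons and that difference gave 0 under all alternatives run. The fraction median ran from -0.43 to 0.12 with each library left out, the astrocyte genotype median from -0.58 to 0.034, the flowthrough one from -1.23 to 0.057 and the difference of genotype effects from -0.36 to 0.82. Without flowthrough aKO 203 the fraction estimates of Rsph14 (0.12), Cfap161 (0.87), Tekt1 (0.084) and Cfap299 (0.19) reversed, and the lowest with 1 library left out were -1.72, -1.60, -1.33 and -1.43; the cause was not tested.

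Over a total without mitochondrial genes and Ttr, the axonemal sum was 2233 CPM in WT and 1789 CPM in aKO astrocytes. In flowthrough it was 2824 CPM in WT and 2317 CPM in aKO. Over the full library total, without the 24 genes that share exons with others, it was 1004 CPM in aKO astrocytes. Over the same full total, the sum of all axonemal genes was also taken with each library left out. It then ran from 1240.3 to 1917 CPM in WT and 1215 to 1305 CPM in aKO astrocytes. In flowthrough it ran from 1915 to 2447 CPM in WT and 815 to 2471 CPM in aKO. Of the other results, 339 of their alternatives kept direction and side of the threshold, 34 passed it newly, 19 lost it and 4 reversed.

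Over all genes, the astrocyte genotype count was 5, with DESeq2 14, without the filter 8, with 202 as aKO 0, in 1 fit of all libraries 1, without aKO 222 and WT 265 3, and 0 to 5 with a library left out. The fraction count was 3515, and 5951 with the replicate block. In flowthrough, 0 became 45 without the filter, and in the difference of genotype effects 0 became 40.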
